A study of Mus musculus with 2 samples.

Results

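The genes described here are 10 genes of the endoplasmic reticulum (ER) stress response, Hspa5, Hsp90b1, Hyou1, Sdf2l1, Pdia4, Creld2, Manf, Dnajb9, Herpud1 and Xbp1. They were chosen by name, with earlier results of these data known. Every probe set that the platform table gives to 1 of them alone was taken. All 10 were on the array, with 19 probe sets out of 20380 that name a single gene, and they are 10 of 12393 such genes. Both samples were mouse induced pluripotent stem cells (iPSCs), which are reprogrammed somatic cells, grown in embryonic stem cell medium that held serum and 2i, an inhibitor mix of Mek and Gsk3 used to keep cells naive. One sample was live and the other hybridized, with 1 array for each; what was hybridized to the cells is not in the labels, nor is a strain, a clone or a further treatment. The question is whether RNA taken after hybridization gives the profile of live cells. A single array in each group allows no test and gives no replicate error, so the hybridization and any other difference in how the samples were handled cannot be told apart.

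The ER folds secreted and membrane proteins. When unfolded protein builds up in its lumen, 3 membrane sensors, Ire1 (encoded by Ern1), Perk (Eif2ak3) and Atf6, start the unfolded protein response. Ire1 splices the Xbp1 mRNA in the cytoplasm so that it encodes an active transcription factor, Perk slows translation and raises Atf4, and Atf6 is cut in the Golgi by the proteases of Mbtps1 and Mbtps2 to release a transcription factor. Together they raise chaperones, folding enzymes and the machinery that exports misfolded protein for degradation. The classical target promoters carry the ER stress element (ERSE), a CCAAT box and a CCACG site a fixed distance apart, where NF-Y and Atf6 or Xbp1 bind.

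The promoters of 5 of these genes are shown because they let a reader see which carry that element and where. The sequences are the 250 bases before the annotated start, from RefSeq (GRCm38.p6), written 5′ to 3′ along the gene. Capitals mark the fixed letters of a match on either strand to ERSE, which is CCAAT, then 9 bases of any kind, then CCACG, or to the related ERSE-II, which is ATTGG, any base, then CCACG.
Hspa5, chr2:34771840-34772089, + strand: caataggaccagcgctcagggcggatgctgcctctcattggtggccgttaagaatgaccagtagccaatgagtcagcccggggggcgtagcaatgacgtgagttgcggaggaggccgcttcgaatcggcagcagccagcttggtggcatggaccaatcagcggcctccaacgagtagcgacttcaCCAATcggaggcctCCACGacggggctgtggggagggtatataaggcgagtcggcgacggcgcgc
Hsp90b1, chr10:86705445-86705694, - strand: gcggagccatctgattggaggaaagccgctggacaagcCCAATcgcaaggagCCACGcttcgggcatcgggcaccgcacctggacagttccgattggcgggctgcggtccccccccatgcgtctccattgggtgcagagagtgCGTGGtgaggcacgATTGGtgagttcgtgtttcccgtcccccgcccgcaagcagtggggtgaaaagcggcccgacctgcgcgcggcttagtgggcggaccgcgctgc
Creld2, chr15:88819396-88819645, + strand: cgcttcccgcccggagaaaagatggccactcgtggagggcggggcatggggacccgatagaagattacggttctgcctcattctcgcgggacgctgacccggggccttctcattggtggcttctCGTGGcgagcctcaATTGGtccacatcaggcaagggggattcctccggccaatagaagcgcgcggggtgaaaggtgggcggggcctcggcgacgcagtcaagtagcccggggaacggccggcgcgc
Herpud1, chr8:94386179-94386428, + strand: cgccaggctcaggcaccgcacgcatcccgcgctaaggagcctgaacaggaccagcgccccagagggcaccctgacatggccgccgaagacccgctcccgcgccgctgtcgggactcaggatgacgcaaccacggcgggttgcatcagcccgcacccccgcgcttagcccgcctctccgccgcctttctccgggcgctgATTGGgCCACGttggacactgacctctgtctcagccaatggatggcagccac
Sdf2l1, chr16:17132384-17132633, - strand: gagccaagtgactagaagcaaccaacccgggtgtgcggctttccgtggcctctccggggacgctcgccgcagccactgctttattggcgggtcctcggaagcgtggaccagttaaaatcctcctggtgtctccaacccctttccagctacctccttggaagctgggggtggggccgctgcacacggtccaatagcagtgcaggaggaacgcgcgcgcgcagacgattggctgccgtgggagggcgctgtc
Of the 10 genes, 8 had a RefSeq promoter window of 300 bases, 250 before and 50 after the start. Hspa5 held 1 ERSE that ended 46 bases before the start. Hsp90b1 held 2, of which the first ran forward (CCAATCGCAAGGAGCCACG) and the second in reverse (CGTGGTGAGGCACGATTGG). Creld2 held 1 in reverse, and its window overlaps by 173 bases that of Alg12, a mannosyltransferase gene on the opposite strand, where the same match was found. Herpud1 held the only ERSE-II among them, ATTGGGCCACG, which ended 41 bases before the start. Sdf2l1, Pdia4, Dnajb9 and Xbp1 held neither sequence in these windows. The third motif searched, TGACGTGG, at the core of the element bound by Xbp1, was in none of the 8. Over all 32851 windows, 0.119% held ERSE, 0.0365% ERSE-II and 0.676% TGACGTGG. ERSE was defined on promoters of ER chaperones, Hspa5 and Hsp90b1 among them, so its presence here is no independent result. A CCAAT box alone was in 37.4% of all windows. Only exact matches were counted, so an element with a changed letter is not in these counts. A match describes letters in a window and does not show binding.

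Values are log2 GCRMA values as the authors deposited them, and a difference is the hybridized value minus the live value. A probe set counts as measured when the mean of its values on both arrays is 5 or more, and as 2-fold apart when it differs by at least 1 in size. Of the 19 probe sets 17 reached this level, and each of the 10 genes had at least 1. As deposited, 13 of the 17 were below 0 and 4 above, 5 were at least 2-fold lower and 0 at least 2-fold higher. Over all 11407 single-gene probe sets at the level, 53.2% were below 0 and 46.4% above, and 12.8% were 2-fold lower and 13.1% 2-fold higher. The 5 lower probe sets belong to 3 genes, with 3 from Xbp1, 1 from Hyou1 and 1 from Sdf2l1, and probe sets of the same gene are not independent. Without Xbp1, 2 of 13 were lower, which is 15.4% and near the share of all probe sets. The median difference was -0.51 over the 17 probe sets and -0.07 over all probe sets. Taking the brightest probe set of each gene, 2 of 10 genes were 2-fold lower and 0 higher, against 15.4% lower and 8.43% higher of 7262 genes, and the medians were -0.43 and -0.17.

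These directions depend on what is taken as 0. The 18 hybridization control probe sets, bacterial and phage transcripts added to every array, differed by -1.22 to -0.15, and centring on their median adds 0.80 to each difference. Under that centring 11 of the 17 probe sets were above 0, 3 were 2-fold higher and 0 lower, with a median of 0.29. All probe sets then had 81.5% above 0, 37.1% higher and 2.25% lower, with a median of 0.73, so the median of the described genes remained the lower. Centring on the median probe set instead adds 0.07 and gave 3 lower and 0 higher, against 11.4% and 14.3% of all probe sets. A deposited difference above -0.80 therefore turns positive with control centring, while the order of these genes against others stays as it was. The 5′ and 3′ control probe sets showed less 3′ excess in the hybridized sample. The value of the 5′ minus that of the 3′ probe set of Actb was -0.50 there and -3.02 in the live sample. For Gapdh they were -0.12 and -1.93, and for Tfrc -3.23 and -3.73. Its part in the values below was not tested, as no position of a probe set was used here.

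**Figure D1:**
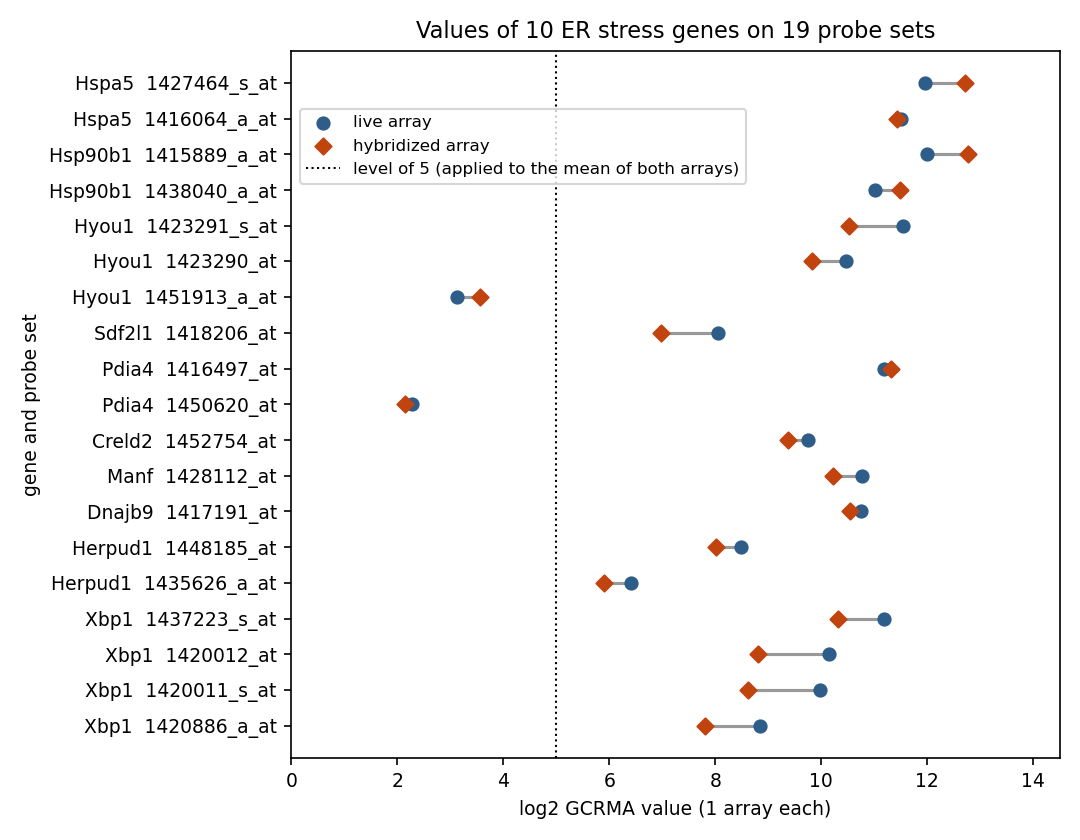
Each row is a probe set of 1 of the 10 genes, and the horizontal axis is its log2 GCRMA value on the live array (circles) and the hybridized array (diamonds), 1 array each, with the level of 5 dotted. All 4 rows of Xbp1 lie further left on the hybridized array, both rows of Hsp90b1 further right, and 1 row each of Hyou1 and Pdia4 lies under the level; positions on this axis are not comparable between probe sets.

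Among the chaperones of the ER lumen, Hspa5 encodes BiP, the Hsp70 of the ER, which binds unfolded chains and holds the sensors inactive. Its probe set 1427464_s_at read 12.72 on the hybridized array and 11.95 on the live array, a 1.71-fold higher value that is short of 2-fold. Its other probe set, 1416064_a_at, read 11.43 and 11.51, a difference of -0.08. The hybridized sample was thus the higher on one and level with the live sample on the other, and the probe sets of Hspa5 disagree by 0.85. Over 2720 genes with several probe sets at the level, the median gap between the highest and lowest difference was 0.84. That set also holds genes with more probe sets than Hspa5, where such a gap can be wider. It holds dimmer genes too, where differences spread more. Whether 0.85 is usual for a gene as bright as Hspa5 with as many probe sets was not computed.

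Hsp90b1 encodes Grp94, the Hsp90 of the ER, whose clients include integrins and Toll-like receptors. It read 12.77 against 12.00 on 1415889_a_at, a difference of 0.77, and 11.49 against 11.02 on 1438040_a_at, a difference of 0.47. The hybridized array was the higher on both. Hsp90b1 was the only gene of the 10 with several probe sets at the level that all lay above 0. Of the 5 scalings run (as deposited, centred on the median probe set, centred on the hybridization controls, quantile normalization, and loess correction on level), the 2 centrings only add to a difference. They could thus not turn these signs. The 2 differences were 0.87 and 0.43 with quantile normalization, and 0.86 and 0.46 with the loess correction. As deposited, these probe sets lay at percentiles 82.4 and 73.7 of all differences at the level. Of 1770 genes with exactly 2 probe sets at the level, 62.5% had both on the same side of 0, so agreement of a pair is common.

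Hyou1 encodes Grp170, a large Hsp70 relative that serves BiP as a nucleotide exchange factor. On 1423291_s_at it read 10.52 in the hybridized sample against 11.54 in the live sample, a difference of -1.02. On 1423290_at it read 9.82 against 10.47, a difference of -0.65. The live array was the higher on both as deposited, whereas centring on the hybridization controls left the first at -0.22 and put the second at 0.15. The third probe set, 1451913_a_at, read 3.56 and 3.13, under the level, where values have no order.

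Sdf2l1, a soluble partner of Hsp40 cochaperones in the ER, was 2.11-fold lower. Its only probe set, 1418206_at, read 6.97 on the hybridized array and 8.05 on the live array. The difference of -1.08 lay at percentile 11.2 of all probe sets at the level, and was -0.28 when centred on the hybridization controls. Its relative Sdf2 read 9.04 and 9.02.

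Pdia4, a protein disulfide isomerase also called Erp72, was close to equal on the 2 arrays. It read 11.31 and 11.19 on 1416497_at, a difference of 0.12, and its second probe set 1450620_at was under the level at 2.14 and 2.28. A pair of small secreted or lumenal proteins read slightly lower. Creld2, an ER protein with reported disulfide isomerase activity, read 9.37 against 9.75, a difference of -0.38. Manf, a cysteine-rich protein that binds BiP and is secreted under stress, read 10.23 against 10.76, a difference of -0.53. Both are under 1.5-fold and both turn positive when centred on the hybridization controls, at 0.42 and 0.27. Creld1, the membrane-bound relative of Creld2, was lower by 0.80 at 7.06 in the hybridized sample.

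Dnajb9 and Herpud1 act in the disposal of misfolded protein. Dnajb9 encodes ERdj4, an Hsp40 cochaperone that also recruits BiP to repress Ire1, and read 10.54 against 10.74, a difference of -0.20. Herpud1, a membrane protein that organises the Hrd1 ubiquitin ligase complex, read 8.01 against 8.49 on 1448185_at and 5.90 against 6.41 on 1435626_a_at. Its differences of -0.48 and -0.51 were 0.03 apart, the closest of the 5 genes with several probe sets at the level, and both turned positive (0.32 and 0.29) when centred on the hybridization controls. Herpud2, its relative, was 0.44 higher at 11.52 and differed by 0.25 on its second probe set. On its dimmest, whose mean of 5.12 is just above the level, it differed by 1.72.

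Xbp1 was lower on every probe set. It read 10.31 in the hybridized sample against 11.19 in the live sample on 1437223_s_at, a difference of -0.88. On 1420012_at it read 8.80 against 10.14, a difference of -1.34. On 1420011_s_at the values were 8.62 and 9.98, differing by -1.36, and on 1420886_a_at 7.81 and 8.85, differing by -1.04. The live array was thus the higher on all 4, and 3 of them were at least 2-fold apart. Of 214 genes with exactly 4 probe sets at the level, 15% had all 4 below 0 and 4.21% had at least 3 that were 2-fold lower. All 4 stayed below 0 under each of the 5 scalings, and lay between -0.56 and -0.08 when centred on the hybridization controls, where 18.1% of all probe sets were below 0. The 2 centrings add 0.07 and 0.80, so deposited differences below -0.80 could not turn under them. The probe sets 1420012_at and 1420011_s_at, carry the same source accession in the platform table, so they may read the same stretch of the transcript. The values give total Xbp1 signal and cannot tell the spliced from the unspliced mRNA.

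**Figure D2:**
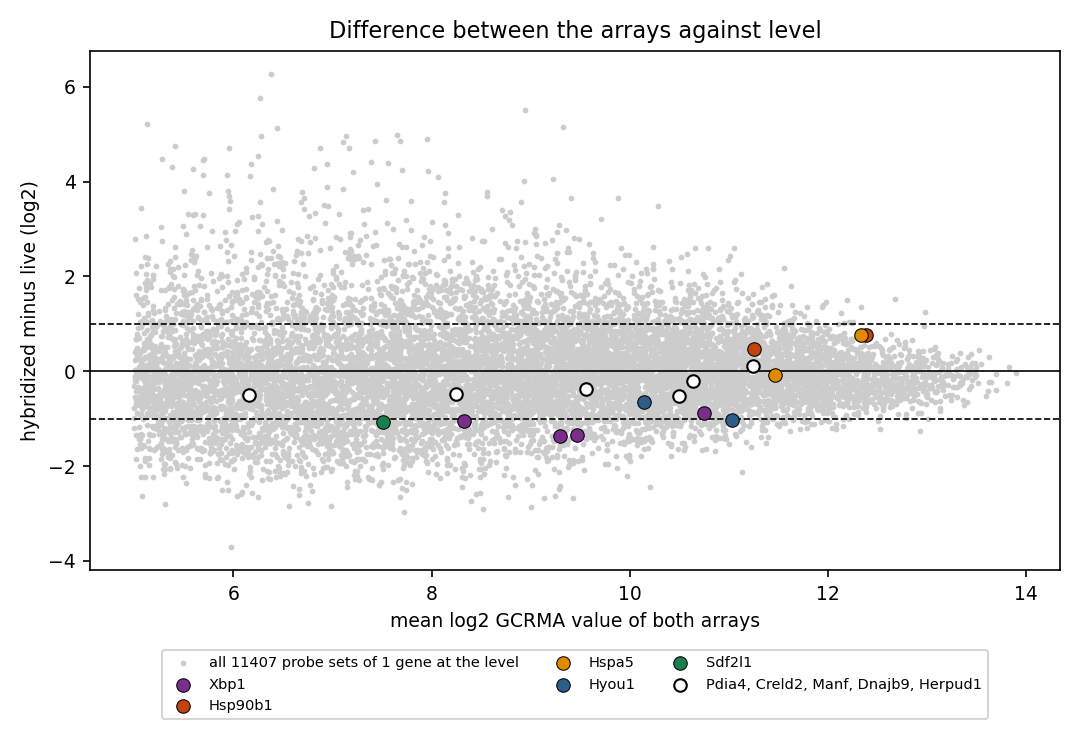
The horizontal axis is the mean log2 GCRMA value of both arrays and the vertical axis the hybridized minus live difference (log2), for all 11407 single-gene probe sets at the level (grey) and the 17 of the described genes (coloured or open), with dashed lines at 2-fold. All points of Xbp1, Hyou1 and Sdf2l1 lie below 0, those of Hsp90b1 and 1 of Hspa5 lie above 0, and the grey cloud narrows to the right.

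The spread of all differences narrows with level, which bears on how a given size reads. At a mean of 11 or more, 2.88% of 2082 probe sets were 2-fold lower and 3.99% higher, and of the 6 probe sets of the described genes there 1 was lower (Hyou1, at a mean of 11.03) and 0 higher. At a mean from 5 to under 11, 15% of all probe sets were lower and 15.1% higher, and of the 11 probe sets of these genes 4 were lower and 0 higher. All 11 were below 0, against 4943 of all 9325 probe sets in that range, and 4 of the 11 are from Xbp1 and 2 from Herpud1. Of the 6 brighter ones 4 were above 0, against 943 of all 2082. The 4 above 0 belong to Hspa5, Hsp90b1 and Pdia4.

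**Figure D3:**
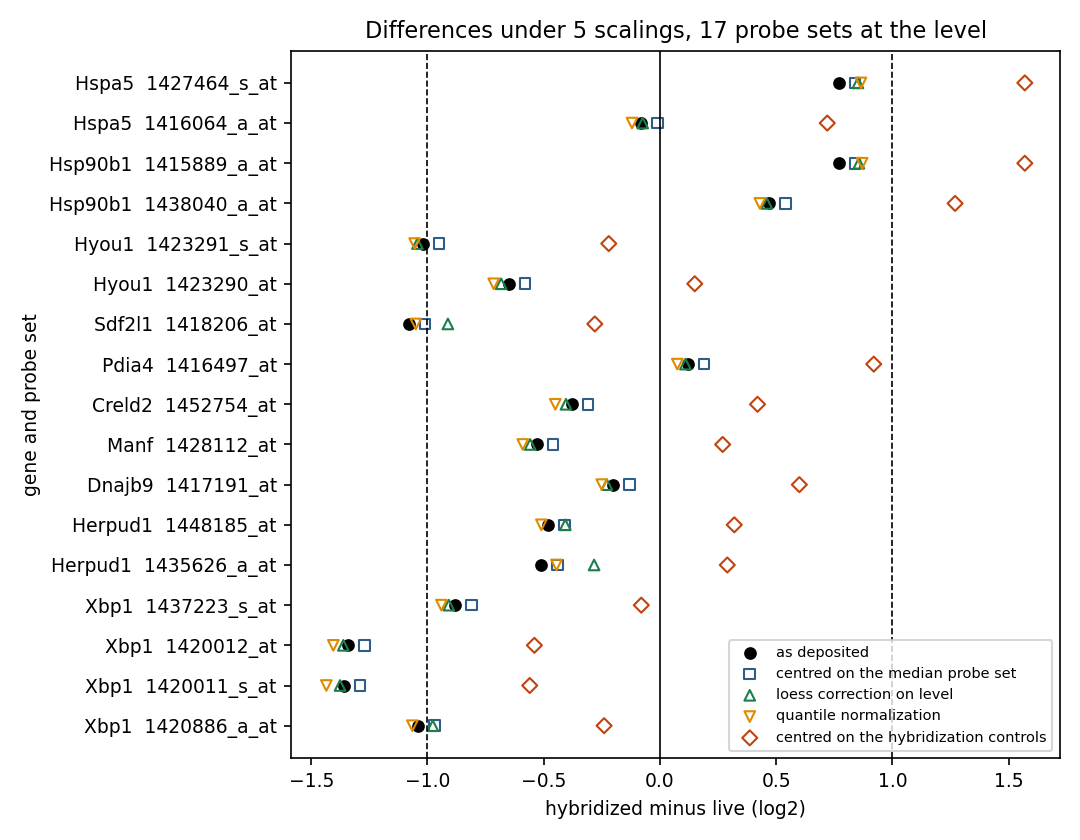
Rows are the 17 probe sets at the level and the horizontal axis is the hybridized minus live difference (log2) under 5 scalings, with dashed lines at 2-fold. Centring on the hybridization controls moves every row to the right by 0.80 and leaves 6 rows below 0, namely all 4 of Xbp1, that of Sdf2l1 and 1 of Hyou1; the other scalings lie nearer the deposited values.

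The remaining genes of the pathway did not share 1 direction. Over 7 lists of other sensors, effectors, folding enzymes and ER machinery, 86 of 92 genes on the array reached the level on their brightest probe set, and 5 were 2-fold higher and 9 lower, with a median of -0.07 against -0.17 for all genes. The balance turns when every probe set at the level is counted, an alternative chosen after seeing the data: of 155, 17 were higher and 14 lower, or 11% and 9.03% against 13.1% and 12.8% of all probe sets, and the median was 0.08 against -0.07. With control centring 29 of the 86 genes were higher and 0 lower, where 37.1% of all probe sets were higher and 2.25% lower. The share of all genes under that centring was not computed. Counts and values below are as deposited and on the brightest probe set unless stated. The shares to set beside the counts of genes are 8.43% higher and 15.4% lower of all genes.

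Among the sensors and the proteases that activate them, 4 of 6 genes were at the level. Atf6 was 2-fold higher, at 7.59 against 6.29, while its paralogue Atf6b was lower, at 7.19 against 8.76. Each was read on 1 probe set. Mbtps1, the Golgi protease that makes the first cut in Atf6, was lower at 9.65 against 10.83, and Eif2ak3 differed by -0.66. Ern1, which encodes the kinase that splices Xbp1, was under the level on all 3 of its probe sets. The effectors of the Perk branch, which belong to the integrated stress response, had 0 of 7 higher and 2 lower, from the pseudokinase Trib3 at -1.54 to Ppp1r15b, a phosphatase subunit that restores translation, at 0.60. Atf4 differed by 0.58 and Ddit3, which encodes Chop, by 0.28.

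Oxidative folding enzymes had a median above that of all genes. Of 14 such enzymes 2 were higher and 1 lower, with a median of 0.12. Over all 22 probe sets 4 were higher (18.2%) and 1 lower (4.55%), against 13.1% and 12.8% of all probe sets. Erp29, a lumenal protein with a thioredoxin-like fold, was furthest above at 9.91 against 7.97, and Pdia3, the disulfide isomerase that works on glycoproteins, read 11.35 against 9.88. Txndc5 was furthest below at 8.31 against 9.55, but its second probe set differed by 0.78 in the opposite direction. The 9 lectin chaperones and glycoprotein quality control genes had 0 higher and 2 lower with a median of -0.45. They ran from Lman2, a cargo lectin, at -1.41 and -1.60 on its 2 probe sets, to Mcfd2 at 0.34. Prkcsh, the beta subunit of glucosidase II, was the other lower member at -1.25, and the lectin chaperones Calr and Canx differed by -0.45 and 0.16.

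BiP cochaperones and exchange factors had 0 of 6 genes 2-fold apart and a median of -0.33. Over all 15 probe sets 3 were higher, all from Sec63 and Dnajc3, and 0 lower, against 13.1% and 12.8% of all probe sets, with a median of 0.26. Sec63, which couples BiP to the translocon, differed by -0.64 on its brightest probe set and by 0.42, 1.91 and 2.05 on its others. Sil1, an exchange factor like Hyou1, was lowest at -0.81. Dnajc3, the p58IPK cochaperone, was highest at 0.77, while its other probe sets at the level ran from -0.34 to 2.38. In ER-associated degradation, 1 of 20 genes was higher and 1 lower with a median of -0.23. Over all 36 probe sets 5 were higher (13.9%) and 2 lower (5.56%) with a median of -0.01. On the brightest the higher was Derl2, a derlin of the export machinery, at 1.13 (0.76 on its second probe set), and the lower was Os9, a lectin that delivers substrates to the Hrd1 complex, at -1.58. The 26 translocon, targeting and oligosaccharyltransferase genes had 1 higher, the translocon subunit Sec61a2 at 1.27, and 1 lower, Rpn1 at -1.06, with a median of 0.16. Over all 50 probe sets 4 were higher and 4 lower, or 8% each, and the second probe set of Sec61a2 differed by 2.96. All 5 probe sets of Rpn1 were below 0, between -1.06 and -0.53.

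**Figure D4:**
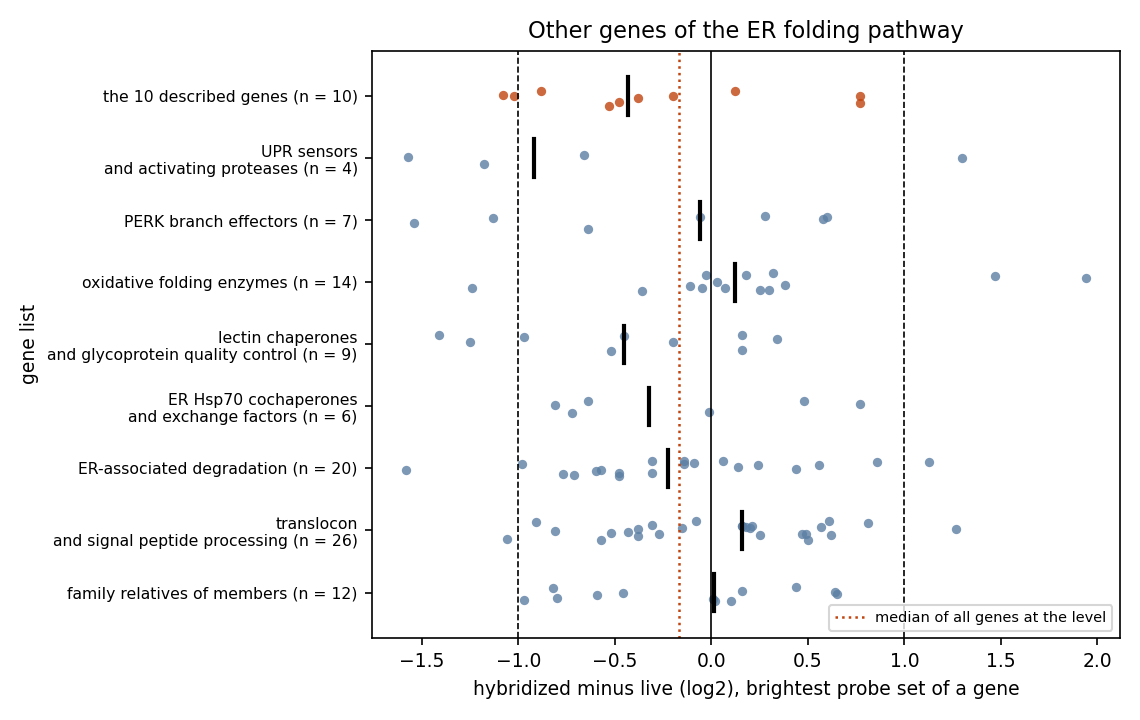
Each point is a gene at the level, placed by its hybridized minus live difference (log2) on its brightest probe set, with a row for each gene list and black bars at list medians; the vertical jitter carries no value. The dotted line is the median of all genes at -0.17, and the medians of the lists run from -0.92 for the 4 sensor and protease genes to 0.16 for the 26 translocon genes.

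Relatives of the described chaperones in the cytosol and mitochondria, of the Hsp70 and Hsp90 families, were set beside them. On the brightest probe set, 0 of 9 such genes at the level were 2-fold apart, against 8.43% higher and 15.4% lower of all genes, and the median was 0.01. Most of these brightest probe sets had means of 11 or more, where only 6.87% of all probe sets were 2-fold apart. Over all 21 of their probe sets at the level, 2 were higher and 1 lower (13.1% and 12.8% of all probe sets), with a median of 0.10. Hspa8, the constitutive Hsp70 of the cytosol, read 13.63 against 13.47 on its brightest probe set and differed by -0.37 to 0.32 over all 4. Hspa9, the mitochondrial Hsp70, read 13.03 against 12.38, and 11.89 against 11.83 on the second. Trap1, the mitochondrial Hsp90, differed by -0.46 and 0.32 on its 2 probe sets. The furthest on the brightest probe set were Hspa1b, a stress-induced cytosolic Hsp70 that is nearly identical to Hspa1a and so uncertain, at -0.97, and Hspa9 at 0.65. The 3 past 2-fold on another probe set were the Hsp70 relatives Hspa4 at 2.21 and Hsph1 at 1.39, against 0.01 and -0.82 on their brightest, and Hspa1b at -1.16. Hspa5 and Hsp90b1 differed by 0.77 on their brightest probe sets, and whether they differ from these relatives could not be tested with 1 array a group.

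The measured genes with an ERSE were under 2-fold apart on their brightest probe sets. Of 37 genes with the element in their window, 13 reached the level, with 0 past 2-fold in either direction and a median of -0.03. Among the 10 of them that are not described genes, the differences ran from -0.99 for Pan2 to 0.77 for Dnajc3, with Calr, Canx and Pdia6 at -0.45, 0.16 and 0.30. Of the 3 described genes with the element, Creld2 differed by -0.38 and Hspa5 and Hsp90b1 each by 0.77. Several of the 13 genes, Hspa5, Hsp90b1, Calr and Canx among them, had means of 11 or more. At that level only 6.87% of all probe sets were 2-fold apart. Other probe sets of Dnajc3 at the level ran from -0.34 to 2.38. The 7 genes with ERSE-II had a median of -0.48 with 1 lower, the Golgi calcium-binding protein Nucb1 at -2.86. The 68 genes with TGACGTGG had 9 higher and 12 lower with a median of -0.04. Over the 5999 genes at the level with any window, 8.05% were higher and 15.4% lower with a median of -0.17.

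The labelled cell type was checked on its markers. All 9 pluripotency markers reached the level, with differences from Pou5f1 at -0.70 to Nanog and Zfp42 at 0.14. Of 8 fibroblast markers, which would mark feeder cells, 1 reached the level, Col1a1 at 4.46 against 6.17, and the summed log2 values were 20.62 in the hybridized and 23.47 in the live sample. Most values in these sums are under the level, and Col1a1 alone differed by -1.71. Col1a2, Col3a1 and Dcn read slightly higher in the hybridized sample, and the other markers lower. Of 7 markers of endoderm and secretory cells, which are rich in ER, 0 reached the level and the highest value was 3.13 for Gata4 in the live sample. Their sums were 19.13 and 19.19. In such bulk samples fewer cells of a type and less RNA per cell cannot be told apart.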

How the data were processed

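The 2 iPSC samples were assigned to hybridized or live by their labelled sample type. Trizol LS extraction, NuGEN Ovation amplification and biotin labelling are given in the labels' protocols. The values that the authors deposited were taken as log2 values of GCRMA, which the submitters' processing notes name beside affy, without versions. Which arrays were normalized together is not stated there. The log base was inferred from the method and the range of 1.02 to 14.24. No detection calls were used, and precision is limited by the number of arrays. Of 22690 probe sets, 64 are controls, 691 name several genes and 1555 are unnamed here; the rest were used, with symbols updated through Entrez IDs to RefSeq (GRCm38.p6).

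Differences, counts past 2-fold and medians were computed with no test, in Python 3.11.15 with pandas 2.3.3, numpy 2.4.6, statsmodels 0.14.6 and matplotlib 3.10.9, and counting was tested on simulated data. The members and lists were chosen with earlier results of these data known. Every member probe set was named, and from each list the highest and lowest gene, with 6 relatives, of which Hsp90ab1 was not analysed here; other genes were picked with their values known. Alternatives covered level limits, scalings, probe set choices and a 1.5-fold threshold. A planned count over ER retrieval signals was not run, since protein sequences were not used here.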

Additional observations from a re-analysis of the deposited data

How the results depend on the processing

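Against 5 lower, 0 higher and a median of -0.51 as deposited, the counts were the same at level limits of 4 and 7 and with quantile normalization. In that order 12.8%, 10.5% and 13.0% of all probe sets were lower, and 13.0%, 12.1% and 12.8% higher. The limit of 7 kept 16 of the 17 probe sets. With no limit 5 of 19 were lower and 0 higher (8.5% and 8.9% of all probe sets), and the median was -0.48. Centring on the median probe set gave 3 lower and a median of -0.44, and a loess correction (span 0.3) 3 lower (10.9% of all probe sets) and -0.41. Centring on the hybridization controls gave 3 higher, 0 lower and a median of 0.29. Without suffixed probe sets, 2 of 8 were lower and 0 higher (12.3% and 13.5% of all probe sets). With 1 probe set a gene, 2 of 10 were lower and 0 higher (15.4% and 8.4% of all genes), with a median of -0.43. A 1.5-fold threshold gave 2 higher and 7 lower of 17 (23% and 26% of all probe sets). Leaving out _s_at and _x_at probe sets, an alternative chosen after seeing the data, gave 3 of 13 lower, 0 higher and a median of -0.48 (12.3%, 14.2% and -0.02 over all). No single probe set at least 2-fold apart changed sign, which the 2 centrings, adding 0.07 and 0.80, could not have brought about. No paired analysis was possible because each group has 1 sample. No replicate error exists, and low signal limits 2 of the 19 probe sets.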
